A study of Mus musculus with 22 samples.

Results

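AP-1 (activator protein 1) is the name of a set of dimeric basic leucine zipper transcription factors, and 10 genes encoding its subunits or close relatives were followed here in mouse intestinal organoids exposed to cold atmospheric plasma (CAP). They were Fos, Fosb, Fosl1, Fosl2, Jun, Junb, Jund, Jdp2, Batf3 and Maff, chosen by name among 52636 genes of the deposited table. They were chosen with earlier results of these data known. All 10 were in the table, in each of its 22 libraries, and 9 reached the level needed for testing, in every comparison. Batf3, which pairs with Jun proteins in dendritic cells, was listed at 0 in 19 of 22 libraries and at 1 or 2 in the others, and was not tested.

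A Fos protein cannot bind DNA without a partner and pairs with a Jun protein, while Jun proteins can also pair with each other. The dimers bind the element TGANTCA, called TRE, or the related element TGACNTCA, called CRE, and activate genes of growth, wound repair and stress. Fos, Fosb, Jun and Junb are immediate early genes, whose transcripts appear quickly after a stimulus and are short-lived, and the kinases JNK and p38 raise their transcription and the activity of their proteins. In the intestinal epithelium AP-1 is known for its part in crypt growth and in the response to injury.

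The organoids were grown from crypts of the duodenum of wild type adult mice, with 1 mouse behind each organoid line. The paper describes the mice as outbred CD1, 2 months old and of both sexes. The lines may thus differ in genetic background, and line 3 is present only among the untreated libraries. Lines 1, 2, 3 and 4 (CD1, WT2, 1-20 and 2-20 in the labels, at passages 12, 14, 4 and 4) each gave 1 untreated library, and lines 1, 2 and 4 gave 1 library in each of 6 treated groups. Where the labels give passage 4, the paper's list of lines gives passage 2. In the direct groups a helium plasma jet was applied to the organoid culture 1 day after replating, and the treated medium was left for 30 min or 24 h. In the indirect groups naive organoids received medium conditioned by CAP on another organoid culture, and in the PAM groups plasma-activated medium made without organoids. The labels mark the indirect and PAM groups as 30 min and 24 h as well, whereas the supplementary sample table names them by the day on which a 24 h exposure began. They are called day 1 and day 2 here, as in the figure legends of the study, and why the labels differ was not tested. By those legends the media given at day 2 had been made at day 1. The day 1 and day 2 groups thus differ in age of the medium, start of the exposure and time since its end, which cannot be told apart. By design all cultures ended at day 3, which is 24 h after the change to fresh medium in the day 1 groups and the end of the exposure in the day 2 groups. Whether the RNA of direct 30 min was also taken then, or 30 min after treatment, is not settled by the sources used here, so this group may differ from the others in time of collection as well as in time of contact. The treated groups share the same 4 untreated libraries and the same 3 lines, and no library of helium alone was analysed here.

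Values are read counts per gene scaled to 20 M per library (M for mega), not divided by gene length, and are called values below. The estimated depth was between 19.7 and 28.65 M reads per library, so a value of 20 stands for about as many reads and counting error is large for the untreated values of Fosb and Jdp2. Epithelial markers were at summed values of 110774 to 119106 in untreated libraries and 118025 to 181113 in treated ones, the duodenal markers Pdx1, Gata4 and Gata6 were detected in all libraries, and fibroblast, smooth muscle and endothelial markers stayed at summed values of 28 or less. The leukocyte list summed to 249 to 359, nearly all of it from Csf1r. The share of mitochondrially encoded reads was 1.24 to 1.54% in untreated libraries and lower in PAM day 1 (0.789 to 1.02%), indirect day 2 (0.72 to 0.826%) and PAM day 2 (0.668 to 0.88%). Its part in the results below, and that of the epithelial markers, was not tested. In bulk RNA, more cells that express a gene and more RNA per cell cannot be told apart.

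To give the sequence context of the 4 immediate early members, their promoter windows from RefSeq on GRCm38.p6 are shown, each from 250 bases before to 50 bases after the annotated start. Fos lies on the plus strand (chr12:85473640-85473939), and Fosb (chr7:19309996-19310295), Jun (chr4:95052173-95052472) and Junb (chr8:84978699-84978998) lie on the minus strand, and each is written 5′ to 3′ on its own strand. Capitals mark TGACG, the shared core of CRE-like elements, and, in Jun, the whole element TGACNTCA.
Fos promoter window: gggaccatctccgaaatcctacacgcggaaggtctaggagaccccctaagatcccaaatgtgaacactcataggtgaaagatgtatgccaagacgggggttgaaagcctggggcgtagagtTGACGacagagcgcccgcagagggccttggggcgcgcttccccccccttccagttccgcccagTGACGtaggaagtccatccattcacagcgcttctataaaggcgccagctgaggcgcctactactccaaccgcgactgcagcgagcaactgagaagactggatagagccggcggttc
Fosb promoter window: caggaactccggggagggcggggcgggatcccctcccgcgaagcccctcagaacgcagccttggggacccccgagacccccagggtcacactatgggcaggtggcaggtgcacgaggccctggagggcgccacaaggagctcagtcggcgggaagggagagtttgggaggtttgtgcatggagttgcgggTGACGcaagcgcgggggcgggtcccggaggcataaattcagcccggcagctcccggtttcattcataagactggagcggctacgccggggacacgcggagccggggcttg
Jun promoter window: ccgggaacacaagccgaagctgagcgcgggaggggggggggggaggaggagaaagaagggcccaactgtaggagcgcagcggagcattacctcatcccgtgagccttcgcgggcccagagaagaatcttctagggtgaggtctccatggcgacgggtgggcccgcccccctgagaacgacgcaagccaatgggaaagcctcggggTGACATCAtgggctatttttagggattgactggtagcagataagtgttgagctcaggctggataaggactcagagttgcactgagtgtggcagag
Junb promoter window: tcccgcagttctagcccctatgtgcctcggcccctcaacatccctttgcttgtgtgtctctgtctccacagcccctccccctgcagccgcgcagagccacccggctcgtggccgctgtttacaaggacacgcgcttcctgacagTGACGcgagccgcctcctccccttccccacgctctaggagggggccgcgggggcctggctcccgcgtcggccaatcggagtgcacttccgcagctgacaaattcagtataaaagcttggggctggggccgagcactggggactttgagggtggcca

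Windows were found for 9 of the 10 members, with 13 windows in all since Jdp2 and Maff have several starts. The Jund window (chr8:70697489-70697788) ends before the start of the gene as annotated for exon lengths (70698949). It may therefore not be the promoter of the transcript measured. No entry was present for Fosl1. Searched on both strands, TGACG was found at 5 members (Fos, Fosb, Junb, Jdp2 and Maff) and in 20.8% of all 32851 windows. The former counts members and the latter windows, and Jdp2 and Maff have several windows each, so they do not compare directly. Fos held it at positions -129 to -125 and -66 to -62 from the start, Fosb at -60 to -56 and Junb at -106 to -102. The annotation used for exon lengths puts the start of Junb (84978718) downstream of the start of this window. Positions in Junb thus depend on the start chosen. TGACNTCA was found in Jun at -45 to -38 and in 2 windows of Maff, against 8.83% of all windows, and in 1 of these it overlaps the shorter core. The TRE letters TGANTCA, which 7.81% of windows held, was found in no window of a member, nor was the CArG box, the element bound by Srf, which 1.63% held. A match describes letters only, and its absence says nothing beyond these 300 bases.

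In untreated organoids, Jund was the most abundant member by value per kb of exon, at 2819.8 ± 107 (SD, n = 4), followed by Junb at 714 ± 46.6. Fosl2 (379.6 ± 10.7) and Jun (360.3 ± 49.96) overlapped in their libraries, as did Maff (147 ± 17.99) and Fos (106 ± 32.3). Fosl1 (19.2 ± 6.61), Jdp2 (7.45 ± 3.63) and Fosb (3.72 ± 3.52) were the lowest of the detected members, and each overlapped its neighbour in this order. In PAM day 2, the group with the most members called, Jund stayed highest at 6566 ± 1699 per kb (SD, n = 3), whereas Fos reached 562 ± 106 and overlapped Maff at 568 ± 227.

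**Figure D1:**
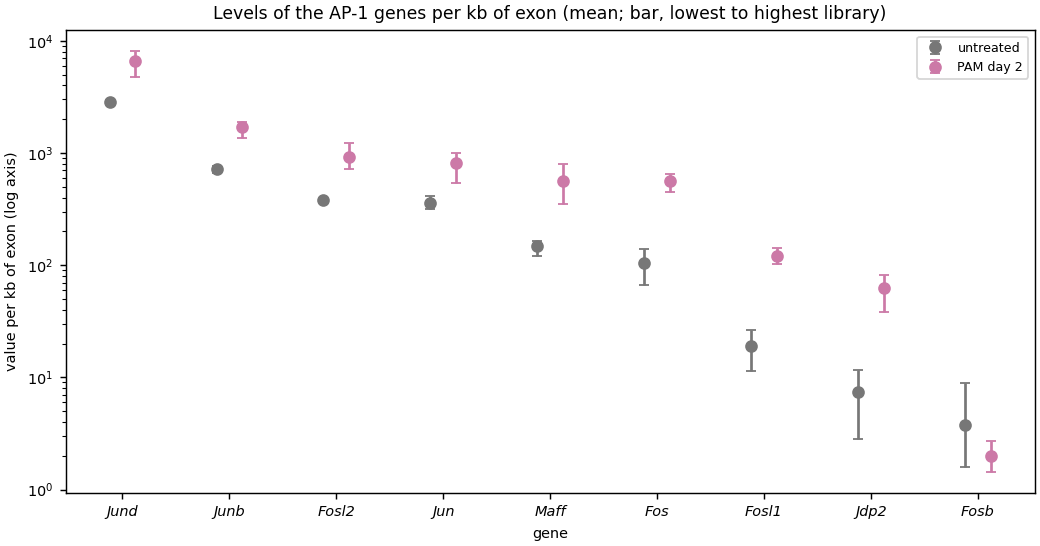
Value per kb of exon on a log axis for 9 AP-1 genes, ordered by their level in untreated libraries, with points for the mean and bars from the lowest to the highest library (4 untreated, 3 PAM day 2). Jund leads in both groups, Fosb is at 3.72 in untreated and 1.98 in PAM day 2, and the other genes shown lie higher in PAM day 2.

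Several members overlap genes on the other strand, and the strand setting of the counting is not given in the sources used here, so reads of the pairs may not be told apart. Jund overlaps Gm11175 along its single exon (values of 3739 to 10955), Jun overlaps Junos (143 to 592), and the 3′ end of Junb overlaps Prdx2 (1920 to 4172). Fosl1 overlaps Ccdc85b (184 to 323) and Jdp2 overlaps Gm47863 (1 to 12). The values of Jund, Junb, Jun, Fosl1 and Jdp2 are therefore uncertain to that extent.

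**Figure D2:**
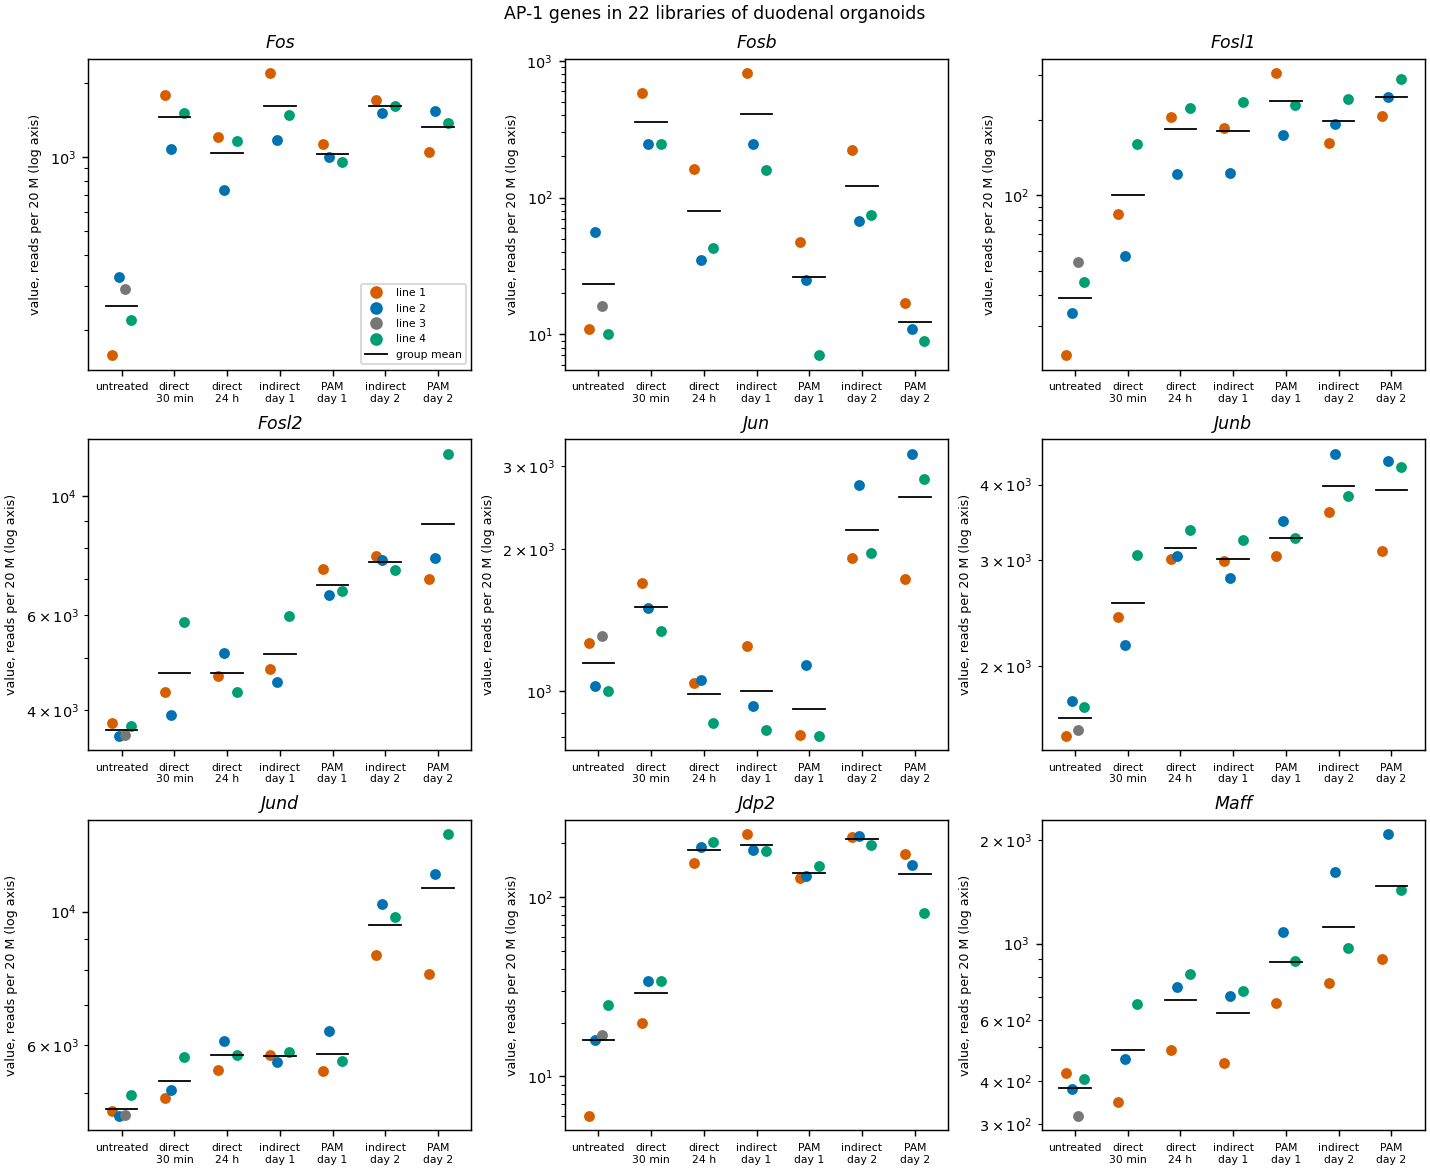
Value of 9 AP-1 genes in each library (reads per 20 M, log axis) by group, with colours for the 4 organoid lines and a black line for the group mean. Fos lies above the untreated libraries in all 6 treated groups, Jun only in the direct 30 min group and both day 2 groups, and Fosb overlaps the untreated range in direct 24 h and both PAM groups.

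Among the Fos family, Fos itself, the founding member, was above all 4 untreated libraries in every one of the 18 treated libraries. Its values in untreated lines 1, 2, 3 and 4 were 157, 327, 291 and 218. In lines 1, 2 and 4 they were 1786, 1077 and 1515 in direct 30 min, 1211, 733 and 1167 in direct 24 h, and 2190, 1173 and 1481 in indirect day 1. They were 1129, 1003 and 957 in PAM day 1, 1706, 1505 and 1608 in indirect day 2, and 1048, 1538 and 1378 in PAM day 2. The group means were thus 4.15 to 6.5 times the untreated mean, with no overlap in any group.

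A member was called where limma's Benjamini-Hochberg adjusted p over all genes tested was under 0.01 and the log2 fold change of log2(value + 1) was at least 1 either way. Fos rose in 5 of 6 groups, by log2 fold changes from 2.08 ± 0.27 (SE, adjusted p = 0.00427) in direct 24 h to 2.74 ± 0.23 (adjusted p = 9.13e-05) in indirect day 2. In direct 30 min its log2 fold change was 2.57 ± 0.27, the third largest of all 17731 genes tested, but its adjusted p was 0.0534. The direct 24 h call was lost once line entered the fit as a replicate block, as the adjusted p was 0.0101, and also without untreated line 2 or 4 or direct 24 h line 4 or 1 (0.0111 to 0.0196). The indirect day 1 call was lost without untreated line 4 (0.0126) or indirect day 1 line 1 (0.0101).

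Fosb, whose protein is a strong activator in dimers with Jun proteins, was high in the direct 30 min and indirect groups and low in the PAM groups. Its values in untreated lines 1 to 4 were 11, 56, 16 and 10. In lines 1, 2 and 4 they were 577, 248 and 247 in direct 30 min, 811, 248 and 160 in indirect day 1, and 224, 67 and 75 in indirect day 2, so these groups did not overlap the untreated libraries. They were 161, 35 and 43 in direct 24 h, 47, 25 and 7 in PAM day 1, and 17, 11 and 9 in PAM day 2, and all of these groups overlapped the untreated range. Line 1 held the highest value in 6 of 6 treated groups.

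Fosb rose in indirect day 1, with a log2 fold change of 4.08 ± 0.68 (SE, adjusted p = 0.00949), a call that was lost with the replicate block (adjusted p = 0.0148), with quantile normalization (adjusted p = 0.0105) and when any 1 of the 7 libraries was left out (adjusted p of 0.014 to 0.0267). Its log2 fold change was 4.12 ± 0.58 in direct 30 min (adjusted p = 0.1) and 2.48 ± 0.64 in indirect day 2 (adjusted p = 0.0143). Without untreated line 2, the library at 56, the log2 fold change in indirect day 2 was 3.01 and the adjusted p 0.00372. In PAM day 1 and PAM day 2 the log2 fold changes were 0.19 ± 0.73 and -0.55 ± 0.58, with adjusted p of 0.86 and 0.462.

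Fosl1 and Fosl2 encode Fos-related antigens that lack the strong activation domain of Fos. Fosl1 was at 23, 34, 54 and 45 in untreated lines 1 to 4 and reached 121 to 306 in the 15 libraries of the treated groups other than direct 30 min, where lines 1, 2 and 4 were at 84, 57 and 160. It did not overlap the untreated libraries in any group. It rose in those 5 groups by log2 fold changes of 2.2 to 2.68, whereas in direct 30 min the log2 fold change was 1.28 ± 0.40 (SE, adjusted p = 0.119). The direct 24 h call was lost without untreated line 1, 2 or 4 or direct 24 h line 4 or 1, with adjusted p of 0.0127 to 0.0246, and the indirect day 1 call when any 1 of its 7 libraries was left out, with adjusted p of 0.0106 to 0.0231.

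Fosl2 was already abundant, with values of 3582 to 3788 in untreated libraries. It was at 7747, 7606 and 7275 in lines 1, 2 and 4 of indirect day 2 and at 6996, 7660 and 11987 in PAM day 2, and rose in both, with log2 fold changes of 1.04 ± 0.06 (SE, adjusted p = 3.95e-05) and 1.23 ± 0.17 (adjusted p = 0.00109). Without line 4 the latter fell to 0.99, just under the fold threshold. In PAM day 1 the log2 fold change of Fosl2 was 0.90 ± 0.07, with an adjusted p of 0.000134 but a fold under the threshold.

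**Figure D3:**
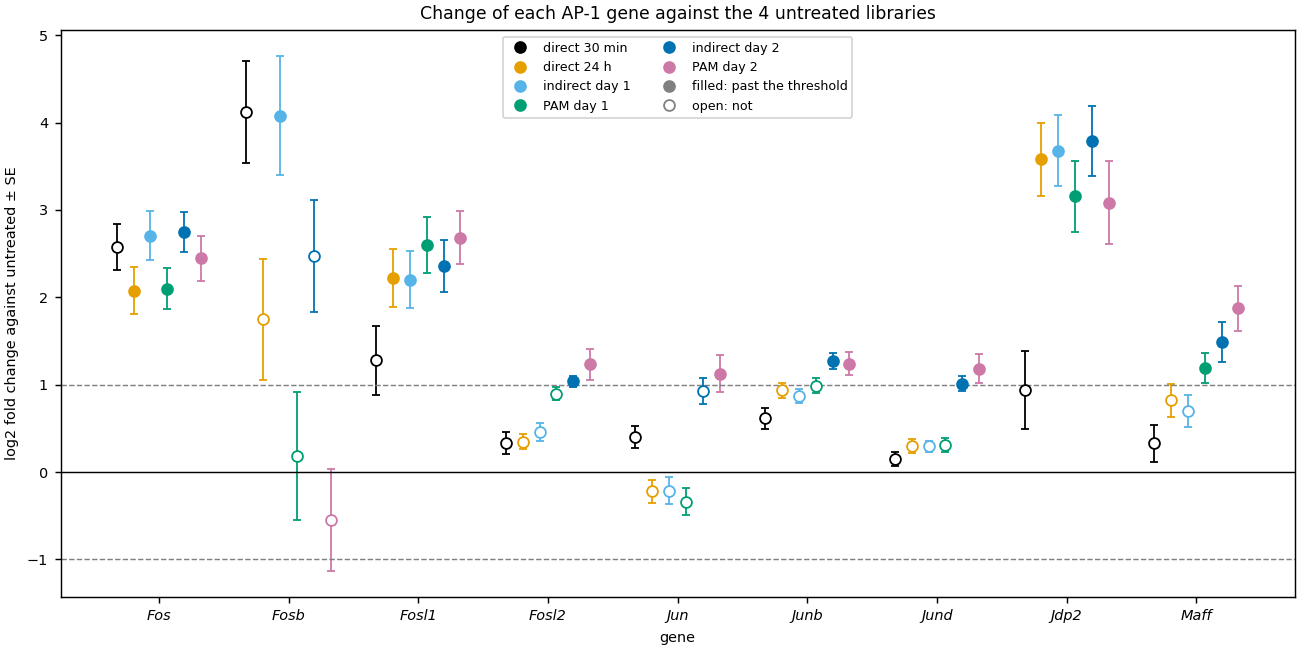
log2 fold change against the 4 untreated libraries (points, with bars of 1 SE) of 9 AP-1 genes in the 6 treated groups, each of 3 libraries, with filled points past the threshold and dashed lines at a log2 fold change of 1 either way. Jdp2 lies between 3.08 and 3.79 in all groups but direct 30 min, and Jun lies above 0 in direct 30 min and the day 2 groups and below 0 in the other 3.

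In the Jun family, Jun, the founding partner of Fos, was at 1267, 1025, 1305 and 999 in untreated lines 1 to 4. In lines 1, 2 and 4 it was at 1910, 2731 and 1958 in indirect day 2 and at 1727, 3189 and 2810 in PAM day 2, above all untreated libraries. In direct 24 h it was at 1038, 1055 and 857, in indirect day 1 at 1247, 929 and 826, and in PAM day 1 at 806, 1136 and 803, all within or below the untreated range. In direct 30 min, values of 1694, 1497 and 1339 lay just above it.

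Jun passed the test in PAM day 2, where it rose by a log2 fold change of 1.13 ± 0.21 (SE, adjusted p = 0.00369), and the call was lost with the replicate block (adjusted p = 0.015) and without untreated line 2, untreated line 4 or PAM day 2 line 2 (adjusted p of 0.0131, 0.0124 and 0.0122). In indirect day 2 the log2 fold change was 0.93 ± 0.15 (adjusted p = 0.00193), under the fold threshold, and it passed that threshold without line 4 or line 1 of that group, at 1.001 and 1.02. In the 3 other groups that ended with fresh medium after a 24 h exposure, its log2 fold changes were -0.22 ± 0.13, -0.21 ± 0.16 and -0.34 ± 0.16 in direct 24 h, indirect day 1 and PAM day 1, none of which passed the test. The difference between PAM day 2 and indirect day 2 in Jun was 0.20 ± 0.26 on the log2 scale (adjusted p = 0.828).

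Junb, a weaker activator that can restrain Jun, was at 1534 to 1753 in untreated libraries and above all of them in each of the 18 treated libraries. Its mean was 2544 ± 460 (SD, n = 3) in direct 30 min, 3009 to 3264 in direct 24 h, indirect day 1 and PAM day 1, and 3977 ± 468 and 3923 ± 708 in indirect day 2 and PAM day 2. It rose in both day 2 groups, with log2 fold changes of 1.27 ± 0.09 and 1.24 ± 0.13 (SE). In PAM day 1 its log2 fold change of 0.99 ± 0.08 (adjusted p = 0.000156) fell just under the threshold, and quantile normalization put it over, at 1.02, as did leaving out untreated line 2 or 4 or PAM day 1 line 1 (1.02, 1.01 and 1.04).

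Jund, the most steadily expressed Jun protein gene, was at 4581 to 4966 in untreated libraries. It was at 8464, 10287 and 9783 in lines 1, 2 and 4 of indirect day 2 and at 7868, 11546 and 13441 in PAM day 2, while the other treated groups lay between 4910 and 6345. It rose in both day 2 groups, by log2 fold changes of 1.01 ± 0.08 and 1.18 ± 0.17 (SE), and the former fell under the fold threshold with quantile normalization (0.97) and without untreated line 2, or without line 4 or 2 of that group (0.999, 0.99 and 0.95). In the day 1 and direct 24 h groups its log2 fold changes were 0.29 to 0.30, with adjusted p of 0.016 to 0.0363.

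Jdp2 and Maff encode partners without an activation domain, Jdp2 being a repressor that pairs with Jun proteins and Maff a small Maf protein. Jdp2 was at 6, 16, 17 and 25 in untreated lines 1 to 4 and at 20, 34 and 34 in lines 1, 2 and 4 of direct 30 min, which overlapped. It was at 156, 191 and 204 in direct 24 h, 226, 183 and 181 in indirect day 1, 128, 131 and 149 in PAM day 1, 216, 221 and 197 in indirect day 2, and 174, 151 and 82 in PAM day 2. Every one of these 15 libraries was above all untreated and direct 30 min libraries.

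Jdp2 rose in those 5 groups, by log2 fold changes from 3.08 ± 0.47 (SE, adjusted p = 0.0015) in PAM day 2 to 3.79 ± 0.40 (adjusted p = 0.000244) in indirect day 2. In indirect day 1 and direct 24 h its change was the 7th and the 11th largest of all genes tested. Leaving out untreated line 2 or direct 24 h line 1 raised its adjusted p in direct 24 h to 0.0118 and 0.0131, and in indirect day 1 it was 0.0101 to 0.014 without untreated line 2 or without line 1, 2 or 4 of that group. In direct 30 min the log2 fold change was 0.94 ± 0.45 (adjusted p = 0.231). The paper lists Jdp2, with Fos and Fosb, among transcription factors raised early by CAP. In the separate fit of direct 30 min here none of them was called, and the test differs from that of the authors.

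Maff was at 422, 379, 316 and 406 in untreated lines 1 to 4. It was at 673, 1081 and 893 in lines 1, 2 and 4 of PAM day 1, 769, 1619 and 969 in indirect day 2, and 902, 2080 and 1435 in PAM day 2, and line 1 was lowest in each of these groups. It rose in these 3 groups, by log2 fold changes of 1.19 ± 0.17, 1.49 ± 0.23 and 1.88 ± 0.26 (SE). In direct 24 h and indirect day 1 the log2 fold changes were 0.82 ± 0.19 and 0.70 ± 0.18, with adjusted p of 0.022 and 0.0321.

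Counted by group, 0 of 9 members tested were called in direct 30 min (6 at an unadjusted p under 0.05, where 24.9% of all genes were), 3 in direct 24 h, 4 in indirect day 1, 4 in PAM day 1, 7 in indirect day 2 and 8 in PAM day 2, all higher and none lower. The share of all genes called higher was 0.00564%, 1.25%, 0.831%, 4.83%, 6.2% and 6.82% in the same order, and the share called lower was 0%, 0.917%, 0.477%, 5.4%, 5.71% and 10.5%. The members called were Fos, Fosl1 and Jdp2 in all 5 groups with any call, with Fosb added in indirect day 1 and Maff in PAM day 1. Fosl2, Junb, Jund and Maff were added in indirect day 2, and these with Jun in PAM day 2. With the replicate block, 2, 3 and 7 members were called in direct 24 h, indirect day 1 and PAM day 2, against 1.34%, 1.36% and 6.43% of all genes called higher in those fits. Quantile normalization moved the median of all genes by 0.118 on the log2 scale in PAM day 2, from -0.118, and left its 8 calls in number.

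In direct 30 min, 6 of 9 members (Fos, Fosb, Fosl1, Fosl2, Jun and Junb) were above all untreated libraries in all 3 libraries, whereas 12.4% of all genes tested were. The only gene called in this group was Egr1, an immediate early gene outside AP-1, at 1139 ± 93.8 (SD, n = 3) against 331 ± 48.4 (n = 4), with a log2 fold change of 1.79 ± 0.13 (SE, adjusted p = 0.00696). It came from a list of 10 other immediate early genes, also chosen with earlier results known. In indirect day 2, 5 of 9 tested from that list were called higher, and in PAM day 2, 4 of 8. Of all genes, 6.2% and 6.82% were. The median log2 fold changes of the list were 1.4 and 1.31, and those of the AP-1 members 1.49 and 1.24.

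Pooling direct 24 h, indirect day 1 and PAM day 1 (9 libraries) against untreated, 3 of 9 members were called, Fos, Fosl1 and Jdp2, against 4.27% of all genes called higher and 2.07% called lower. Their log2 fold changes were 2.29 ± 0.24, 2.34 ± 0.26 and 3.47 ± 0.27 (SE). The 9 libraries come from 3 mice, so that neither these errors nor the SDs with n = 9 below rest on 9 independent animals, and with line as a replicate block the values were 2.39, 2.52 and 3.55 (adjusted p = 0.000176, 3.65e-05 and 2.13e-05). In this comparison 7 of 9 members were above all untreated libraries in all 9 libraries, against 7.16% of all genes, and Fosb and Jun were the others. The log2 fold change of Fosb was 2.00 ± 0.95 (adjusted p = 0.116), and its 9 values ran from 7 to 811 with a median of 47.

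Next, treated groups were compared with each other. Fitted on the 3 against 3 libraries compared, without the replicate block, no member passed the test in any of these comparisons, against 0% of all genes called either way in direct 24 h against direct 30 min, 0.0111% in indirect day 2 against day 1, and 0% in PAM day 2 against day 1, PAM day 1 against direct 24 h, PAM day 1 against indirect day 1 and PAM day 2 against indirect day 2. At an unadjusted p under 0.05, there were 4, 5, 2, 2, 4 and 2 of 9 members in the same order, where 21.4%, 21.7%, 26.8%, 10.4%, 21.7% and 9.48% of all genes were. Libraries sharing a number stem from 1 mouse, and line was therefore also fitted as a replicate block. Then 2 members were called in direct 24 h against direct 30 min, where 1.13% of all genes were, and 2 in indirect day 2 against indirect day 1, where 3.46% were.

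Between direct 30 min and direct 24 h, Fosb and Jdp2 went opposite ways in every line. Fosb fell with the block, from 577 to 161 in line 1, from 248 to 35 in line 2 and from 247 to 43 in line 4, by 2.37 on the log2 scale (SE without the block 0.60, adjusted p = 0.00185 with it and 0.205 without). Jdp2 rose with the block, from 20 to 156, from 34 to 191 and from 34 to 204, by a log2 difference of 2.64 (adjusted p = 0.0013 with the block and 0.0787 without). Fos and Jun were also lower at 24 h in each line, with log2 differences of -0.50 ± 0.25 and -0.62 ± 0.14, which did not pass the test (adjusted p = 0.269 and 0.205 without the block).

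Between the day 1 and day 2 indirect groups, Fosb fell with the block from 811 to 224 in line 1, from 248 to 67 in line 2 and from 160 to 75 in line 4, by 1.60 on the log2 scale (adjusted p = 0.000174 with the block and 0.23 without). Jun rose with the block from 1247 to 1910, from 929 to 2731 and from 826 to 1958, a log2 difference of 1.14 (adjusted p = 0.000512 with the block and 0.0348 without). Jund differed by 0.72 ± 0.10 (adjusted p = 0.0237 without the block), under the fold threshold. In PAM, Jun went from 806, 1136 and 803 at day 1 to 1727, 3189 and 2810 at day 2, a log2 difference of 1.46 ± 0.26 with an adjusted p of 0.0553 without the block and no call with it.

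**Figure D4:**
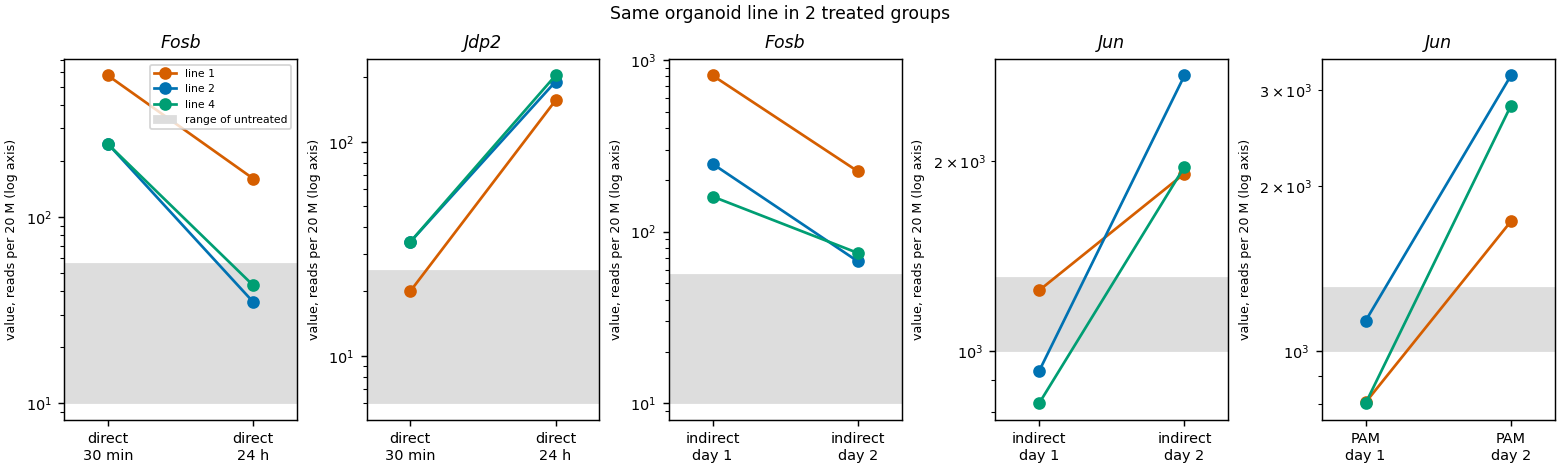
Values (reads per 20 M, log axis) of Fosb, Jdp2 and Jun in pairs of treated groups, with a line joining the 2 libraries of each organoid line and a grey band for the range of the 4 untreated libraries. Fosb falls and Jdp2 climbs from direct 30 min to direct 24 h in all 3 lines, and Jun climbs from day 1 to day 2 in all 3 lines of both the indirect and the PAM groups.

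Between media on the same day, Fosb was lower in PAM in each line. On day 1 the values in lines 1, 2 and 4 were 47, 25 and 7 in PAM against 811, 248 and 160 in indirect CAP, a log2 difference of -3.89 ± 0.79 (SE, adjusted p = 0.165). On day 2 they were 17, 11 and 9 against 224, 67 and 75, a log2 difference of -3.02 ± 0.51 (adjusted p = 0.523). Neither comparison, both of which were added after the values of Fosb were seen, passed the test with or without the block, and no other gene did in these fits without it. Against direct 24 h, PAM day 1 differed in Fosb by -1.56 ± 0.78 (adjusted p = 0.521). Fos differed between PAM and indirect CAP by -0.60 ± 0.22 on day 1 and -0.30 ± 0.16 on day 2, with adjusted p of 0.194 and 0.585.

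Genes of other bZIP partners of AP-1 were taken from a list of 13, of which 12 were tested. This list and those below were chosen with earlier results of these data known. In the pooled comparison 3 were called, all of them higher (median of the 12 log2 fold changes 0.33), against 4.27% of all genes. In indirect day 2 and PAM day 2 there were 4 and 5, against 6.2% and 6.82% of all genes, with medians of 0.80 in both. Atf3, a stress-induced repressor, was at 95.8 ± 10.05 (SD, n = 4) in untreated libraries, 292 ± 86.5 (n = 9) in the pooled groups, 842 ± 387 (n = 3) in indirect day 2 and 1354 ± 725 (n = 3) in PAM day 2. Ddit3, which encodes CHOP of the unfolded protein response, rose by a log2 fold change of 1.55 ± 0.16 (SE) in the pooled groups and 2.32 ± 0.16 in PAM day 2. Maf, a large Maf factor, rose by 1.37 ± 0.27 in the pooled groups. The CREB-related Atf2 and Atf7 were not called in any group. Atf4 rose against untreated in the day 2 groups, by 1.31 ± 0.17 and 1.52 ± 0.17, and its differences from day 1 to day 2 did not pass the test (adjusted p = 0.0853 in indirect CAP and 0.0503 in PAM).

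Of 18 genes of kinases and regulators that act on AP-1, 17 were tested, and the median log2 fold change over them was 0.03 in the pooled groups and 0.12 in PAM day 2. Only Elk3 and Dusp1 were called in the pooled comparison, both higher, 2 of 17 against 4.27% of all genes, with log2 fold changes of 1.26 ± 0.23 and 1.35 ± 0.19 (SE). Dusp1, a phosphatase that switches off JNK and p38, went from 128 ± 31.8 (SD, n = 4) untreated to 1421 ± 496 (n = 3) in indirect day 2 and 3040 ± 2037 (n = 3) in PAM day 2. The kinase genes Mapk8, Mapk9 and Mapk14 and the factor gene Srf were not called in any treated group, although Mapk9 in PAM day 2 missed only the fold threshold (log2 fold change -0.76 ± 0.15, adjusted p = 0.0045). So did Creb1, a CRE-binding factor gene, with -0.72 ± 0.07 in PAM day 1 and -0.78 ± 0.12 in PAM day 2 (adjusted p = 0.000299 and 0.00172).

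Of 20 genes known as AP-1 targets, 15 were tested, and 8 were called in the pooled comparison, all of them higher (median of the 15 log2 fold changes 1.29), where 4.27% of all genes were called higher and the median over all genes was -0.054. They were Areg, Ptgs2, Plaur, Plau, Hmox1, Lif, Hbegf and Ccnd1. The paper names Areg, Ptgs2, Hbegf, Hmox1 and Lif as raised by CAP in these cultures. The count is thus not independent of what was known when the list was made. Areg, an EGF receptor ligand, was at 509 ± 307 (SD, n = 4) untreated, 4499 ± 1278 (n = 9) in the pooled groups and 8981 ± 2661 (n = 3) in PAM day 2. Hbegf, another such ligand, went from 196 ± 45.7 (n = 4) to 477 ± 73.8 (n = 9) and 685 ± 193 (n = 3) in the same order. Ptgs2, which encodes a prostaglandin synthase, rose by log2 fold changes of 2.89 ± 0.62 (SE) in the pooled groups and 4.63 ± 0.85 in PAM day 2. In direct 30 min no target was called, with log2 fold changes of up to 1.45 ± 0.59 for Areg (adjusted p = 0.176). Cd44, Il11, Itga5, Mmp14, Spp1 and Sprr1a were tested but called in no group, and Vegfa was called in indirect day 1, indirect day 2 and PAM day 2, with log2 fold changes of 1.05, 2.34 and 2.33. In indirect day 2 and PAM day 2, 6 and 7 of 15 targets were called, all higher, against 6.2% and 6.82% of all genes. Ccnd1 and Plau were not among them, at 0.42 and 0.47 in indirect day 2 and -0.36 and 0.72 in PAM day 2. Cd44 in PAM day 2 missed only the fold threshold (-0.76 ± 0.11, adjusted p = 0.00136). Mmp14 there was at -1.62 ± 0.49 (adjusted p = 0.0258). Mmp3, Mmp9, Mmp10, Mmp13 and Timp1 were too low to test.

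**Figure D5:**
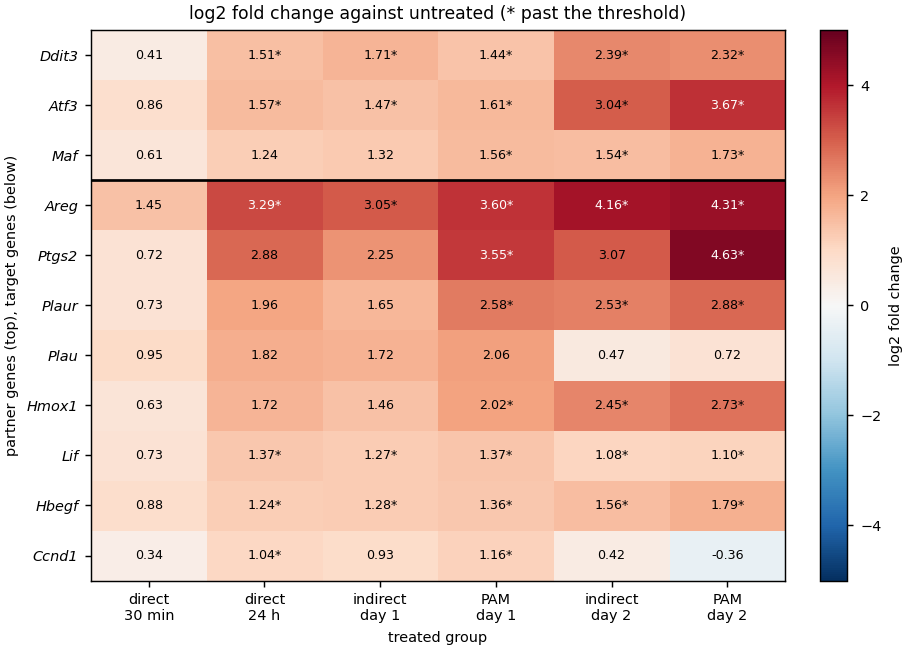
log2 fold change against untreated of the AP-1 partner genes (top) and target genes (below) called in the pooled comparison, by treated group of 3 libraries, with colour for the value printed in each cell and an asterisk where the test was passed in that group. None of the 11 genes has an asterisk in direct 30 min, and Areg runs from 1.45 there to 4.31 in PAM day 2.

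Over the 22 libraries, the genes whose log2 values followed each member most closely were found among 14583 candidates by Pearson's r, as a description over libraries that share lines and controls. The candidates left out the members themselves and gene models with Gm or Rik symbols. Gm11175, which overlaps Jund, could therefore not appear. For Fos the nearest was Cyr61 (r = 0.896), for Fosl1 Syt8 (0.979), for Fosl2 Hgs (0.978), for Junb Plk3 (0.968), for Jdp2 Gpt2 (0.942) and for Maff Suco (0.966). For Jund they were Dusp1 (0.976) and Ppp1r15a (0.975), and for Jun its antisense gene Junos (0.985) and Dusp16 (0.954). Fosb had the weakest nearest genes, Akap8l (0.819), Snord59a (0.813) and Egr1 (0.813). Among the members themselves, Fosl1 and Junb were closest (r = 0.908), and r of Fosb with the others ran from -0.33 with Maff to 0.55 with Fos.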

How the data were processed

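The authors trimmed paired-end reads with Trimmomatic 0.36, aligned them to GRCm38 with STAR 2.5.3a and counted them with HTSeq 0.9.1, as given in the submitters' processing notes and the study's methods. What they deposited is a table of scores, that is, counts that the authors brought to a total of 20 M for every library and rounded up. Library totals were 20007540 to 20016513. The study also calls such values per kilobase, but they are not divided by length. Raw counts were not used here, so the edgeR test of the authors was not run. The columns without a sample numbered 0.

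Genes were matched to GENCODE vM21 on GRCm38 for positions and exon lengths. The depth was estimated from the spacing of low values, with an error of up to 1.8% in 6 simulated libraries. The log2(value + 1) scale was used for limma 3.58.1 (R 4.3.3, trended prior), over genes that reached 10 in 3 or more fitted libraries, each comparison on its own groups. The code was tested on simulated data. Figures were drawn with Python 3.11.15 and matplotlib 3.10.9.

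Alternatives changed the scaling (quantile normalization), the pseudocount (10), the filter (none) or the model (1 fit of all 7 groups, or line as a replicate block), or left out each library in turn. After removing group means, libraries of the same line correlated with a median r of 0.564 between treated groups (lowest 0.219, 45 pairs), against -0.33 between lines, and the same number marks the same animal, so the numbers pair the samples. Untreated libraries 1 and 2 are less certain, with a median r of 0.131 to treated libraries of the same number and 0.422 to those of the other number. Without the block, p-values rest on the spread between the lines of a group, and in the pooled comparison also on that between its groups. With the block they rest on the spread left once differences between lines are taken out. The genes named are all members, the called genes of the fixed lists and the 3 nearest genes per member, and 1 listed gene is not reported here. The members and lists were chosen with earlier results of these data known.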

Additional observations from a re-analysis of the deposited data

Results flagged for a closer look

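In the 4 untreated libraries, the Fosb value of line 2 stood apart, at 56 against 10, 11 and 16, with a gap of 0.87 of the whole range, above the critical value of Dixon's test for 4 values. Line 1 was highest in Fosb in 6 of 6 treated groups, whereas among the untreated libraries line 2 was. Over all genes the untreated libraries of lines 1 and 2 followed treated libraries of the other number more closely (median r of 0.422) than those of their own (0.131), and whether their labels are crossed was not tested. For Batf3 the gap was 1 times the range, which rests on a value of 1 in line 3 against 0 in the others and so on about 1 read. Of 10 such sets of values, chance alone would mark about 1 in 20.

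With line as a replicate block, 4 differences between treated groups passed the test. From direct 30 min to direct 24 h the log2 difference was -2.37 for Fosb (adjusted p = 0.00185, limma) and 2.64 for Jdp2 (adjusted p = 0.0013). From indirect day 1 to indirect day 2 it was -1.60 for Fosb (adjusted p = 0.000174) and 1.14 for Jun (adjusted p = 0.000512). The direction held in 3 of 3 lines in each case, and none of the 4 passed in the separate fits without the block, while Jun passed in the fit of all 7 groups (adjusted p = 0.00971).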

How the results depend on the processing

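Of 1098 refits, 1022 were labelled unchanged, and the cause of the exceptions was not tested. For single genes (882) the label means the same direction and the same side of the threshold. For counts of members called (140) it means a change of at most 1.5 times, so a member could lose its call. Genes and comparisons that stayed without a call also carry the label. The number of members called changed by over 1.5 times in these cases. With all 7 groups in one fit, it was 1 instead of 0 in direct 30 min (Fos, then the only gene called, 0.00516% of all), in indirect day 2 against day 1 (Jun, with 0.315% of all genes called) and in PAM day 2 against day 1 (Jun, with 4.55%). With the replicate block it was 2 instead of 0 in direct 24 h against direct 30 min and in indirect day 2 against indirect day 1, and the block lost Fos in direct 24 h, Fosb in indirect day 1 and Jun in PAM day 2. Leaving out 1 library gave 0 to 3 members instead of 3 in direct 24 h, with 0 without untreated line 2 or direct 24 h line 1 (0.201 to 2.21% of all genes called), and 0 to 2 instead of 4 in indirect day 1, with 0 without indirect day 1 line 1 (0.141 to 0.628% of all genes). The log2 fold change of Fosb in PAM day 1 changed sign when 1 library was left out, giving -0.39 to 0.90. Depth limits Fosb, Jdp2 and Fosl1 in untreated libraries most, since their values there stand for few reads.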
